A study of Bos indicus with 9 samples.

Results

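Of the 68177 hypothalamus ATAC-seq peaks that start at or past 1000000 bp on chromosomes 1 to 29, 8207 overlapped, by 1 bp or more, both a muscle peak and a liver peak, and these 8207 autosomal regions open in all tissues are described here. They were 12% of the hypothalamus peaks past that limit, and the series holds 140923 peaks in all. The same overlap took in 29.5% (95% Wilson interval 28.96 to 30.02) of the 28554 muscle peaks and 83.4% (82.7 to 84.1) of the 10465 liver peaks past the limit. The regions were chosen by the peak calls themselves, so their number and the strength of their peaks are given as a description, with no test.

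ATAC-seq (assay for transposase-accessible chromatin with sequencing) was performed on nuclei from frozen hypothalamus, muscle, and liver of 3 Brahman heifers (Bos indicus), which were past puberty, not related to each other, and alike in weight and age. Each heifer (2047, 2054, and 2057) gave 1 library per tissue, making 3 libraries per tissue and 9 libraries. A single consensus list of peaks was deposited for each tissue, in which the evidence of the 3 heifers had already been combined, so no value of a single heifer was available, the peak lists give no depth (the study's mapping counts per library were not used here), and no test between tissues could be made. Each tissue is a mixture of cell types, and fewer open cells cannot be told apart from less access per cell. Intervals given below are 95% intervals over regions; they cover counting error only and not the spread between heifers.

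In chromatin, nucleosomes keep most DNA from proteins, and the transposase inserts its adapters mainly where nucleosomes are absent or displaced. The promoters of genes that every cell uses, such as those for ribosomal proteins, splicing factors, or the proteasome, lack a nucleosome just upstream of the transcription start site (TSS) in most cell types. Enhancers, in contrast, are often open in a single lineage. Regions open in several unrelated tissues are therefore known to hold many promoters, together with binding sites of insulator proteins.

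For each peak, the lists give the −log10 p at the summit, the position with the strongest evidence, and the area under the −log10 p curve over the peak (AUC). Neither was scaled between lists, so that a difference between tissues over all regions and a difference between the lists cannot be told apart. Values were therefore set beside percentiles within each list, where 100 is the strongest peak of that list on chromosomes 1 to 29 past the limit.

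The strong peaks of each list were more often open in all tissues than the weak ones. In the hypothalamus list, regions open in all tissues made up 1.11% of the weakest decile of peaks, 7.70% of the eighth decile, 31.3% of the ninth decile, 70.9% of the strongest decile, and 92.3% of the strongest 1000 peaks. In muscle the share climbed from 3.54% in the weakest decile to 92.2% in the strongest. In liver, the shortest list, it was already 52.1% in the weakest decile and passed 99% in the ninth (99.5%) and the strongest decile (99.3%). Thus nearly every strong liver peak had a counterpart in the other lists, whereas most hypothalamus peaks, 51518 of 68177, had none. A further 7844 hypothalamus peaks were shared with muscle alone and 608 with liver alone.

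**Figure D1:**
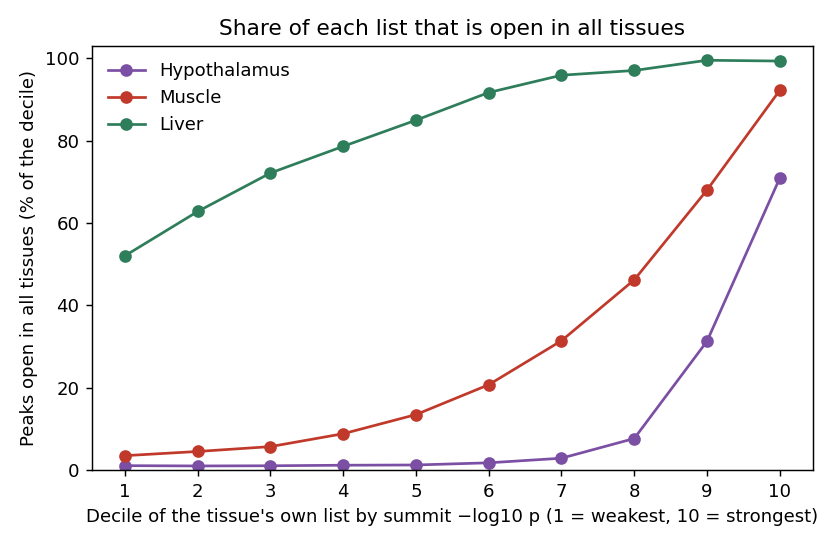
Share of peaks open in all tissues (y axis, % of the peaks in each decile) against the decile of the tissue's own list by summit −log10 p (x axis, 1 is the weakest), with 1 line per tissue. The hypothalamus line stays under 10% up to the eighth decile and ends at 70.9%, while the liver line starts at 52.1%.

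The regions were spread over every autosome, with 3.34 per Mb over 2458 Mb. Their density ran from 1.51 per Mb on chromosome 20 to 8.30 per Mb on chromosome 19, and their share of hypothalamus peaks from 7.38% on chromosome 24 to 17.4% on chromosome 25. Of 2472 windows of 1 Mb, 1707 held at least 1 region, and 45 windows with 20 or more held 1078 of the 8207. The fullest window, at 43 to 44 Mb of chromosome 29, held 42 regions among 122 hypothalamus peaks. The median gap to the nearest other region was 35.9 kb, and 22.8% of regions had another within 10 kb.

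Among the 8207 regions, 6884 formed one-to-one triplets, in which 1 peak of each list overlapped and none of them touched a further peak. The other 1323 could not be compared peak by peak, and 1204 of these lay over 2 or more muscle or liver peaks. Those 1204 hypothalamus peaks had a median length of 2732.5 bp and a median summit −log10 p of 17.2. The most divided was a 10554 bp hypothalamus peak at chr5:103866609-103877162 (assembly ARS-UCD1.2, as are all coordinates here), over 6 muscle peaks and 3 liver peaks. The following comparisons use the 6884 triplets.

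In most triplets the hypothalamus peak was the strongest and longest, and the liver peak the weakest and shortest. In hypothalamus the median summit −log10 p was 15.9 (range 3.16 to 37.6), against 7.68 (3.07 to 32.1) for muscle and 4.85 (2.93 to 30.1) for liver. The hypothalamus peak had a median length of 1682 bp, the muscle peak of 830 bp, and the liver peak of 510 bp, and the median AUC fell likewise from 7759 to 1754 and 615. Region by region, the hypothalamus summit −log10 p was 2.07 times (2.06 to 2.08) that of muscle and 3.18 times (3.16 to 3.20) that of liver, as medians of the ratio, and muscle was 1.53 times (1.52 to 1.54) liver. The order hypothalamus, muscle, liver held for 6288 of 6884 triplets (91.3%). The summit was highest in muscle for 210 triplets and in liver for 160.

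**Figure D2:**
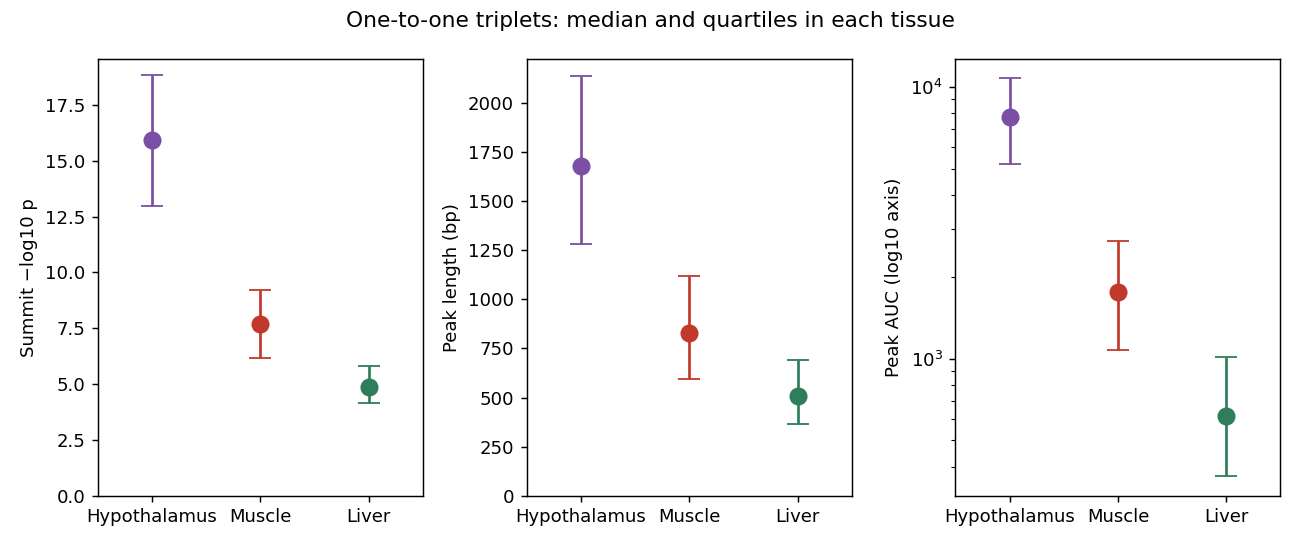
Median (point) and quartiles (bars) over the 6884 one-to-one triplets of the summit −log10 p, the peak length in bp, and the AUC on a log10 axis, by tissue. All 3 measures fall from hypothalamus to muscle to liver, with medians of 15.9, 7.68, and 4.85 for the summit.

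The triplet summits had a median percentile of 91.7 among hypothalamus peaks, 82.1 among muscle peaks, and 58.6 among liver peaks, and the percentile was highest in hypothalamus for 5950 triplets (86.4%), in muscle for 589, and in liver for 345. These percentiles are bounded by how much of each list the regions make up, 83.4% of liver peaks but 12% of hypothalamus peaks, so their order is no separate evidence on the order of the tissues. A region that was strong in one tissue tended to be strong in the others. Over the 6884 regions, Spearman's rho of the summit −log10 p was 0.79 between hypothalamus and muscle, 0.68 between muscle and liver, and 0.55 between hypothalamus and liver, values that share the heifers and the processing.

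The peaks of most triplets were nested around nearly the same summit. The liver peak lay wholly inside the hypothalamus peak in 94.6% (94.0 to 95.1) of triplets and the muscle peak in 90.3% (89.5 to 90.9), and liver within muscle within hypothalamus was the arrangement of 4688 triplets (68.1%). The hypothalamus peak reached past the liver peak by a median of 532 bp on the left and 528 bp on the right, so that it was longer on both sides alike. The interval covered in all 3 lists, called the core here, had a median length of 492 bp. All 3 summits fell inside it in 6707 triplets (97.4%).

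Summits were far closer to each other than the lengths of the peaks. The median distance between the hypothalamus and muscle summits was 16 bp (15 to 17), and that between either of them and the liver summit was 31 bp. The distance was at most 100 bp for 88.1% (87.3 to 88.9) of triplets between hypothalamus and muscle, 82.2% (81.3 to 83.1) between hypothalamus and liver, and 83.1% (82.2 to 84.0) between muscle and liver. The outermost summits lay a median of 51 bp apart (quartiles 20 and 102 bp). By contrast, the midpoints of the hypothalamus and muscle peaks differed by a median of 109 bp. The spread of the summits was 66 bp in the quartile of triplets with the weakest liver summits and 39 bp in that with the strongest.

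TSS positions were known for the first part of the assembly, comprising chromosomes 1 to 4 and the first 109 Mb of chromosome 5, which held 1508 triplets. The core covered an annotated TSS in 809 of these (53.6%), lay within 1 kb of one in 938 (62.2%, 59.7 to 64.6), and lay over 3 kb away in 523 (34.7%). All hypothalamus peaks were annotated only on chromosome 1 up to 97 Mb, and there 62.8% (55.7 to 69.4) of the 188 hypothalamus peaks open in all tissues had a TSS within 1 kb, measured from the whole peak. The share was 26.5% (20.1 to 34.2) of 147 peaks shared with muscle alone, 29.4% (13.3 to 53.1) of 17 shared with liver alone, and 3.08% (2.32 to 4.09) of 1493 found in hypothalamus alone. Among peaks of the strongest decile, 71.3% (62.5 to 78.8) of 115 open in all tissues were near a TSS, against 33.3% (16.3 to 56.3) of 18 shared with muscle and 6.98% (2.40 to 18.6) of 43 found in hypothalamus alone, and none was shared with liver alone. Below the 80th percentile the intervals of the shared classes overlapped, with 24.2% (12.8 to 41.0) of 33 open in all tissues, 20.2% (13.5 to 29.2) of 99 shared with muscle, and 26.7% (10.9 to 52.0) of 15 shared with liver, against 2.91% (2.15 to 3.94) of 1374 in hypothalamus alone.

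The 938 TSS-proximal triplets had median summit −log10 p values of 16.9 in hypothalamus, 8.11 in muscle, and 5.10 in liver, and the 523 that were over 3 kb away had 14.0, 7.14, and 4.81. The tissue order was thus the same in both places, and the peaks at a TSS were somewhat stronger and longer in every list (median length 1754.5, 859.5, and 539 bp against 1595, 767, and 474 bp). Relative to the direction of transcription, the summit lay a median of 100 bp upstream of the TSS in hypothalamus (92 to 105), 96 bp in muscle (89 to 104), and 98.5 bp in liver (89 to 107), intervals that overlap. It lay downstream of the TSS in 10.98% (9.14 to 13.1) of the triplets by the hypothalamus list, 12.8% (10.8 to 15.1) by the muscle list, and 16.7% (14.5 to 19.3) by the liver list.

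The length of the peaks differed on both sides of the TSS. From the start site the hypothalamus peak reached a median of 891 bp upstream and 825 bp downstream, the muscle peak 459 and 372.5 bp, and the liver peak 341.5 and 178.5 bp. The hypothalamus peak thus extended past the liver peak by 521 bp (504 to 546) upstream and 599 bp (574 to 632) into the gene. The muscle peak extended past the liver peak by 78.5 bp (66 to 93) upstream and 158.5 bp (143 to 173) downstream.

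**Figure D3:**
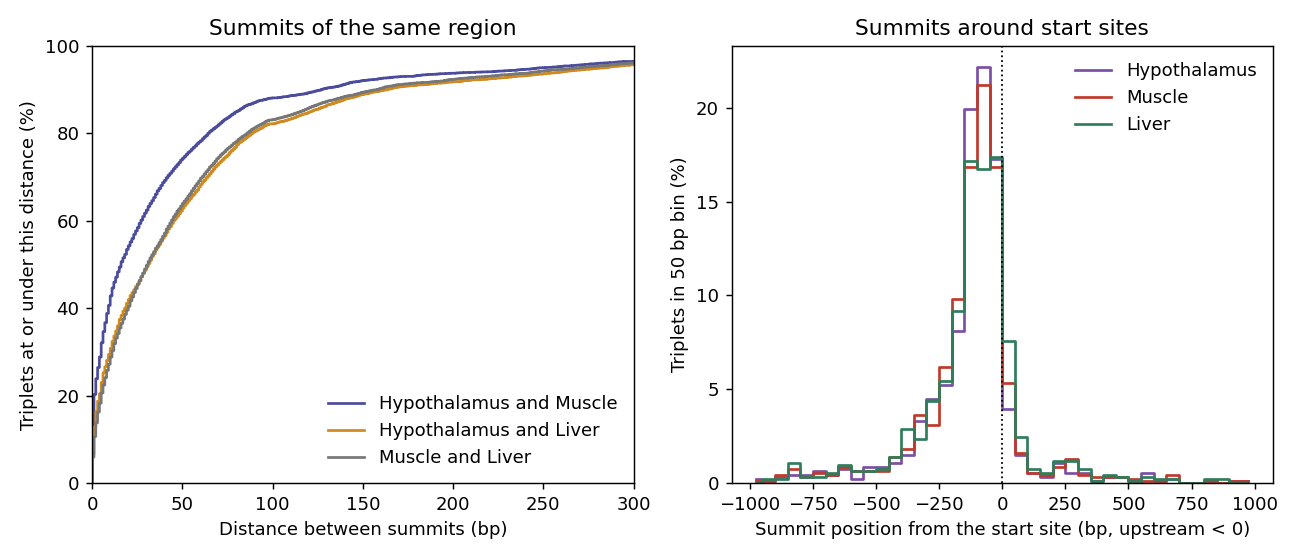
Left, percentage of the 6884 triplets (y axis) whose summits lie within a given distance in bp (x axis), 1 line per pair of tissues. Right, percentage of the 938 TSS-proximal triplets per 50 bp bin (y axis) by summit position from the start site in bp (x axis, negative is upstream), 1 line per tissue. The hypothalamus and muscle summits lie closest, and summits in every tissue gather just upstream of the start site, with medians of −100, −96, and −98.5 bp.

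The genes with such a region at their start were read from lists of genes of known function. Of the 1816 genes of the annotated part, 1123 (61.8%) had a region open in all tissues within 1 kb of a TSS. A gene enters the supplied annotation only as the nearest gene of a peak or of a region that the study listed as open in all tissues. The annotated part was taken to reach as far as that list of regions, whereas the hypothalamus peaks were annotated only on part of chromosome 1. Genes near a region open in all tissues were thus taken in preferentially, and the percentage is no share of all genes. Over the 296 genes of the part of chromosome 1 in which every hypothalamus peak was annotated, it was 41.2% (35.8 to 46.9).

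Over 8 lists of genes that every cell uses, 47 of 51 genes (92.2%) had such a region, against 61.8% of all genes of the annotated part. The 51 genes entered the annotation in the same way, so a high share is partly built in. Listed genes outside the annotation were not counted, and no share on the evenly annotated part of chromosome 1 is given for these lists. Genes of protein synthesis and breakdown had one in every case measured. All 6 ribosomal protein genes of the annotated part did, and so did both translation factors, all 7 proteasome subunits, and all 3 chaperones, lists of few genes each. Splicing factors had one in 10 of 11 cases (HNRNPR, an RNA-binding protein, had none), respiratory complex I subunits in 10 of 11 (not NDUFA10), and RNA polymerase II and mediator subunits in 4 of 5 (not MED18). General promoter-binding factors had one in 5 of 6 cases (not CREB1). Of the immediate-early genes, which respond to stimuli within minutes, 3 of 5 had one, namely JUN, MCL1, and NR4A2, and NR4A1 and CCN1 did not. The clock gene PER2 had none.

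For 42 genes of these lists the region was a one-to-one triplet. In all 42 the summit fell from hypothalamus to muscle to liver, with medians of 15.6, 7.56, and 4.88, values close to those of the 6884 triplets. RPL37A, which encodes a protein of the large ribosomal subunit, shows the usual arrangement. Its hypothalamus peak at chr2:104486684-104488093 had a summit −log10 p of 15.8, its muscle peak at chr2:104487188-104487662 one of 7.38, and its liver peak at chr2:104487232-104487494 one of 5.54. The peaks were 1410, 475, and 263 bp long, each inside the former, and their summits lay within 24 bp of each other and no more than 100 bp from the gene's start at 104487411.

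Other promoters followed the same order of tissues. PSMD2, a subunit of the proteasome's regulatory particle, had summits of 18.5 in hypothalamus, 9.66 in muscle, and 7.09 in liver. HSPE1, the mitochondrial partner of the HSPD1 chaperonin, had 20.5, 11.5, and 8.41. CCT3, a subunit of the cytosolic chaperonin, was high in hypothalamus and muscle (23.0 and 11.7) and moderate in liver (5.50, percentile 73.8 of its list). At USF1, a factor that binds E-boxes in promoters, the summit was at the same base in every list, with 16.8, 7.46, and 4.15. NRF1, an activator of mitochondrial genes, had 18.1, 9.25, and 6.13, with its summits within 6 bp. NR4A2, an orphan nuclear receptor, had 20.1, 10.3, and 4.85.

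Genes of the sarcomere, hepatocyte, and neuron lists had no region open in all tissues, on the few that the annotation held. The sarcomere genes DES and TPM3 had none. DES, a muscle intermediate filament, had a muscle peak within 1 kb of its start with a summit −log10 p of 7.60 and a hypothalamus peak of 3.71 but no liver peak, and TPM3 had a muscle peak of 4.74 alone. Among 6 genes of the hepatocyte list with a known TSS anywhere in the supplied annotation, APOA2 (3.57), FGG (3.69), and AMBP (3.30) had a peak in liver alone. TF, the transferrin gene, had one in hypothalamus alone (19.8), as did AHSG (9.24), and SLC10A1 one in muscle alone (4.21). The liver summits lay in the weakest deciles of their list, the first and second, and that of TF in the strongest of its own. Of these 6 genes, only APOA2, TF, and AHSG were on the annotated part. A gene enters the annotation only as the nearest gene of a peak or listed region, so a peak near such a gene is no separate evidence of its tissue. The neuron genes GAP43 and SST had no peak within 1 kb in any list, so the hypothalamus label could not be checked against them. The lists of chromatin insulation genes and of endothelial, macrophage, and fibroblast markers had no gene on the annotated part.

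Among regions of the annotated part with a TSS of a named gene within 1 kb, ranked by their lowest summit over the lists, the first was at MIR2887-1, annotated under a microRNA name. The core at chr2:121566472-121576305 covered the gene's start, the summits were 34.8 for hypothalamus, 29.01 for muscle, and 25.6 for liver, and the peaks were 9847, 9843, and 9835 bp long, so that their edges nearly coincided. The next was CALCOCO1, an autophagy receptor and coactivator, with summits of 25.3, 12.9, and 10.7, all within 5 bp. It was followed by TMEM59 (23.9, 12.8, and 9.93), RSBN1 (21.6, 11.4, and 9.54), and THRAP3, a splicing and transcription cofactor (24.3, 13.1, and 9.35). In these 4 the hypothalamus peak, of 1805 to 2692 bp, held the whole muscle and liver peaks, and the liver peak was 657 to 874 bp long.

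On the annotated part, the 523 triplets with no TSS within 3 kb had median summits in the general order (14.0, 7.14, and 4.81). Those ranked first by their lowest summit had another form. Over all triplets the lowest summit was mostly the liver one, so this ranking favours regions with a high liver summit. Stronger triplets on chromosomes 21 and 27 have no TSS annotation here and were left out of this ranking. The first, 68958 bp from the start of the glutamate receptor gene GRIK1, spanned chr1:6042647-6043178 with peaks of 533, 533, and 532 bp and summits of 23.4, 23.1, and 22.2, 1 bp apart. The second, at chr5:40362646-40364199 and 302226 bp from LRRK2, had summits of 14.5, 15.8, and 15.4. The region nearest to NAP1L1, at 94445 bp, had peaks of 230, 237, and 235 bp and summits of 9.96, 11.1, and 12.0, and that nearest to NFKBIZ, at 198558 bp, had 9.63, 11.2, and 10.4. A longer region 146447 bp from a gene listed without a symbol had peaks of 4093, 4096, and 4109 bp and summits of 11.4, 12.1, and 12.5. In each of these 5, unlike at CALCOCO1, TMEM59, RSBN1, and THRAP3 but as at MIR2887-1, the peaks had nearly equal lengths in the 3 lists. In all of them but the region near GRIK1, the lowest summit was the hypothalamus one.

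This form was followed over all triplets by the agreement of the edges. In 183 of 6884 triplets the starts in all 3 lists lay within 50 bp and the ends did too, a limit chosen after the values were seen. The count depended on the processing, with 15 such triplets when each list was cut to the length of the liver list and 354 when no start limit was set. The median lengths were 276, 279, and 281 bp, nearly equal because the edges were chosen to coincide. The median summits were 5.78 for hypothalamus, 6.35 for muscle, and 6.62 for liver, the reverse of the general order of the medians. Within single triplets, the order liver, muscle, hypothalamus held in 80 of 183 (43.7%). Edges and summits come from the same −log10 p curve, so a choice by edges also bears on the summits, and these values are a description. The hypothalamus summit was 0.871 times (0.842 to 0.893) the liver summit, as a median ratio, and the liver summit was the higher in 131 of 183 cases (71.6%), against 121 of the other 6701 triplets (1.81%). Within the lists the median percentile was 47.5 for hypothalamus, 68.4 for muscle, and 90.1 for liver. They were thus near the top of the liver list and near the middle of the hypothalamus list.

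**Figure D4:**
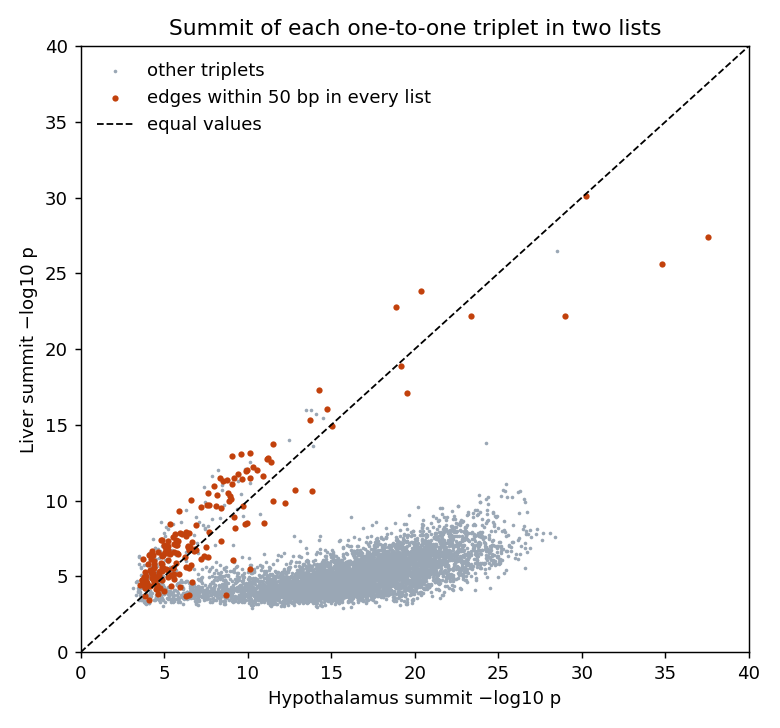
Summit −log10 p in hypothalamus (x axis) and in liver (y axis) of each of the 6884 triplets, with the 183 whose edges lie within 50 bp in every list in orange, the others in grey, and equal values on the dashed line. The orange points scatter about the dashed line, with 131 of 183 above it, and most grey points lie far below it.

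The median summits changed with the difference of the edges. Triplets whose edges differed by 51 to 100 bp at most had median summits of 6.27, 5.79, and 5.19 in hypothalamus, muscle, and liver, those past 100 and up to 200 bp had 7.03, 5.57, and 4.28, and the 5174 with a difference over 500 bp had 16.7, 7.93, and 4.90. The ratio of hypothalamus to liver, as a median over single triplets, rose over the same bins from 0.913 to 1.60 and 3.29. In the bin of 51 to 100 bp the liver summit was thus the higher in most triplets, although the median summit was higher in hypothalamus.

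**Figure D5:**
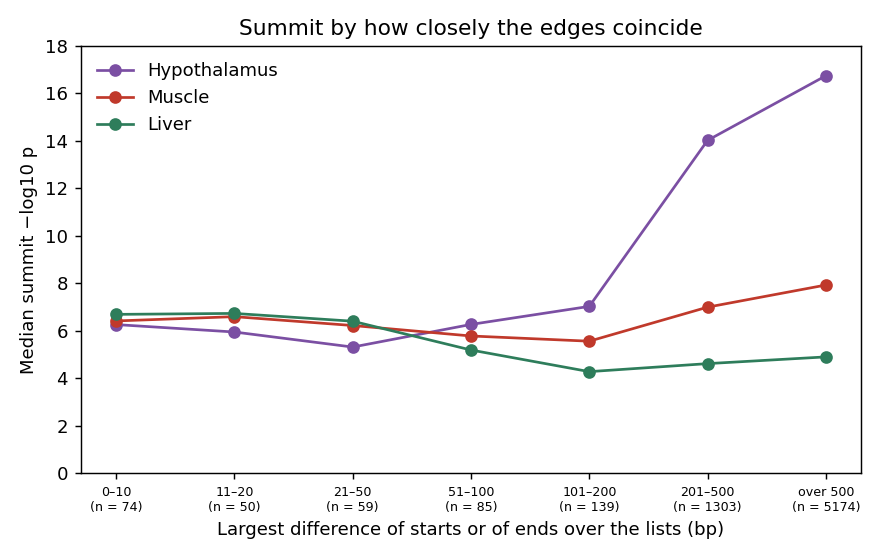
Median summit −log10 p (y axis) of triplets by the largest difference of their starts or ends over the lists, in bp (x axis, number of triplets in each bin in brackets), 1 line per tissue. The lines lie together at 5.32 to 6.74 up to 50 bp and separate beyond 100 bp, where hypothalamus ends at 16.7 and liver at 4.90.

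Triplets with coinciding edges led the ranking by the lowest summit, which favours regions with a high liver summit. They were 9 of the first 10, 13 of the first 20, 24 of the first 50, and 35 of the first 100. The strongest, at chr21:33024577-33026298, had summits of 30.3 in hypothalamus, 32.1 in muscle, and 30.1 in liver at the same base, with peaks of 1723, 1726, and 1722 bp. The region at chr27:6219468-6226226 had 37.6, 31.1, and 27.4, and that at chr6:109018637-109018912 had the same start, end, and summit in every list, with 19.2, 20.3, and 18.9. Of the first 10, the exception was chr21:33001825-33003174, which had summits of 28.5, 28.99, and 26.5 at the same base but a hypothalamus peak 364 bp longer than the liver peak. The strongest triplet with the general order of tissues and without coinciding edges was at chr22:58135794-58137080 (24.3, 15.0, and 13.8).

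These 183 triplets were scattered, in 132 windows of 1 Mb, of which 107 held 1 each and that at 26 to 27 Mb of chromosome 11 held 10. On the annotated part, 1 of 35 lay within 1 kb of a TSS (2.86%, 0.506 to 14.5), the one at MIR2887-1, against 937 of the other 1473 (63.6%, 61.1 to 66.0). Their median distance to a TSS was 167533 bp. What sets these regions apart from the others was not tested.

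Some triplets ranked far higher in a single list than in the others. By the excess of the within-list percentile over the higher of the other lists, the first for hypothalamus was at chr23:25433979-25434527, with summits of 21.5 in hypothalamus, 3.98 in muscle, and 3.56 in liver and percentiles of 98.7, 19.7, and 8.97. Its hypothalamus summit lay 399 bp from the muscle summit. The first for muscle, at chr8:64406551-64406867, had 4.01, 8.57, and 3.63, with percentiles of 13.6, 88.6, and 11.4 and with the hypothalamus and muscle summits at the same base. For liver the first was at chr14:80283374-80283652, with 3.67, 3.48, and 4.78, percentiles of 5.53, 4.52, and 56.7, and peaks of 284, 279, and 296 bp. Its liver summit was below the liver median of 4.85 over all triplets, so its excess rests on low values in the other lists. It was also among the triplets with coinciding edges. A further one, 18328 bp from PRDM9, a gene of meiotic recombination, had 4.48, 5.34, and 6.86. Over the first 3 regions of each tissue the excess was 77.4 to 79.0 percentile points for hypothalamus, 68.8 to 74.99 for muscle, and 38.7 to 51.1 for liver.

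The summits were far apart in few triplets, with a distance over 500 bp between the outermost in 156 of 6884. In the widest, at chr10:88297891-88298770, a hypothalamus peak of 7270 bp had its summit 5230 bp from the muscle summit, while the muscle and liver summits were 67 bp apart. At chr18:53228064-53228297 a hypothalamus peak of 6450 bp, with a summit of 22.8, took in a muscle peak of 370 bp (6.90) and a liver peak of 234 bp (4.16) whose summits differed by 11 bp. In both of these, the overlap joined a short region open in all tissues to a stronger summit of the long hypothalamus peak. The other wide one was the chr27 region above, whose liver summit lay 4888 bp from a summit shared by hypothalamus and muscle, within peaks of nearly the same length.

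The first region inside the start limit, at chr18:1001345-1002700, had a hypothalamus summit of 15.9, and the last one outside, at chr3:996630-997751, had 16.6. The smallest overlap of a chosen region was 52 bp (chr21:65033301-65033855, summit 4.78), the next was 87 bp, and the median of the smaller overlap was 508 bp. The nearest peak left out, at chr10:81244990-81245323 with a summit of 4.81, was 90 bp from a peak of the list it missed.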

How the data were processed

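Per the labels and the study's methods, ATAC-seq reads were aligned to ARS-UCD1.2 with HISAT2 2.1.0, allowing several alignments per read. Peaks were called with Genrich 0.6.1, which combined the 3 heifers of a tissue by Fisher's method at a p threshold of 0.01. A read with several alignments added a fraction of a count at each of its places, so peaks could also be called where reads do not map uniquely. How far this bears on the regions above was not tested. The authors deposited 1 peak list per tissue, with the AUC as a signal value and the −log10 p of each summit, uncorrected and not scaled between lists.

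Peaks on chromosomes 1 to 29 starting at or past 1000000 bp were overlapped (1 bp) with bedtools 2.31.1 and python 3.11.15 (numpy 2.4.6, pandas 2.3.3, scipy 1.17.1), with printed starts counted from 1. Triplets were components of the overlap graph with 1 peak per list. The code was tested on simulated lists. Shares have Wilson 95% intervals and medians exact order-statistic 95% intervals. TSS positions were read from the supplied part of the study's annotation of its peaks and of its regions open in all tissues. Distances were measured from the core. Of 1508 cores, 1501 were found in that annotation, and all 1501 distances matched within 1 bp.

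The regions, gene lists, and limits were chosen with earlier results of these data known. Named regions were the 5 strongest by lowest summit within 1 kb of a named gene's TSS and the 5 with none within 3 kb, the 3 strongest per gene list, the 3 with the largest percentile excess per tissue, the 3 with the widest summits, and those at the limits; others were named after their values were seen. No test between tissues was possible. Alternatives were a stricter summit, a larger overlap, equal list lengths, other limits, and peak midpoints.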

Additional observations from a re-analysis of the deposited data

Results flagged for a closer look

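Sequences outside chromosomes 1 to 29 past their first megabase were not used in the comparisons, and they also held hypothalamus peaks that overlapped both other lists. There were 442 on the X chromosome, 23.3% of its 1895 hypothalamus peaks. The 242 one-to-one triplets there had a median summit of 11.7 for hypothalamus, 6.22 for muscle, and 4.46 for liver, the order of the autosomes, and 13.6% of them had edges within 50 bp in every list.

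On unplaced sequences, 7173 of 7500 hypothalamus peaks (95.6%) were open in all lists. Their 5217 triplets had median summits of 6.06, 7.37, and 7.63 and median lengths of 285, 350, and 363 bp in hypothalamus, muscle, and liver, and 60.1% had coinciding edges. In the first megabase of chromosomes 1 to 29 there were 517 of 956 (54.1%), and their 384 triplets had median summits of 6.45, 7.13, and 6.83, with coinciding edges in 44.5%. Among the autosomal triplets past that limit, 2.66% had coinciding edges. No control samples exist for these lists, and the cause of the difference was not tested.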

How the results depend on the processing

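No paired analysis was possible because the heifers of a tissue are combined in its list, and no library could be left out either. The planned base composition of the regions was not run, since no genome of the files' build was used here. Requiring a summit −log10 p of at least 5 in every list left 3668 regions, 3423 triplets, and 108 with coinciding edges, with median summits of 18.7, 9.27, and 5.94 in hypothalamus, muscle, and liver, median summit distances of 11, 26, and 24 bp (hypothalamus and muscle, hypothalamus and liver, muscle and liver), and 68.9% of regions within 1 kb of a TSS. With as many peaks in each list as in liver, there were 15 triplets with coinciding edges, the median summits were 17.6, 8.46, and 5.21, the hypothalamus and muscle summits lay 12 bp apart, and 71.4% of regions were near a TSS. With no start limit, 354 triplets had coinciding edges, the median summits were 15.7 in hypothalamus and 4.91 in liver, and 59.3% were near a TSS. Without the triplets of coinciding edges, an alternative added after the data were seen, the median hypothalamus summit was 16.1. With midpoints in place of summits the median distances were 109, 122, and 74 bp. A limit of 3 kb gave 64.9% of regions and 64.5% of genes, and 53.6% of regions had a core that covered a TSS. The order hypothalamus, muscle, liver of the median summit, AUC, and length held under all 6, 7, and 6 settings tried for each. A larger smallest overlap moved none of the values above beyond their intervals. The count of triplets with coinciding edges depended most on the setting, from 15 to 354. The lists give no depth, the study's mapping counts per library were not used here, and how depth limits the calls of each tissue was not analysed here.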
